A study of Homo sapiens with 30 samples.

Results

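The genes described here are 10 markers of monocyte maturation (MPEG1, CPVL, MS4A6A, PLAC8, CD93, CD14, FCN1, LYZ, CD36 and LSP1), measured in human acute myeloid leukemia (AML) cell lines. Of these 10, 5 (MPEG1, CPVL, MS4A6A, PLAC8 and CD93) were selected on their measured response to at least 1 of the treatments, so their differences between treated and control cells are given as a description without a test. The other 5 (CD14, FCN1, LYZ, CD36 and LSP1) were taken as known monocyte markers. They were listed with earlier results of these data known, so their tests are not fully independent of these data. LSP1 was already known from these libraries to be higher after MPC1 deletion in MV4-11 cells, and its value there is not independent evidence. All 10 genes were listed among the 60675 genes of the overexpression set and the 58051 genes of the knockout set.

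RNA was sequenced in 30 libraries, in 10 groups of 3. The overexpression set (12 libraries) holds MV4-11 and Molm-14 cells with a lentivirus that expresses the miR-1 hairpin from MIR1-2 sequence with a GFP marker under an EF1a promoter (OE), or a vector with GFP alone (EV). The knockout set (18 libraries) holds cells of MV4-11, of Molm-14 and of THP-1 with a lentiCRISPRv2 construct with Cas9, a GFP marker and a single guide against MPC1 (KO), or an empty vector (EV). MPC1 is part of the mitochondrial pyruvate carrier. All 3 lines are monocytic AML lines, and of them MV4-11 and Molm-14 carry the internal tandem duplication of FLT3 (FLT3-ITD). The labels do not say whether replicates were separate cultures or whether a line was a single clone, so p-values measure the spread between these libraries, which may be technical. Library totals ran from 15543301 to 20939985 counts in the overexpression set and from 5339360 to 9106478 in the knockout set.

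Monocytes arise from myeloid progenitors of the bone marrow through promonocyte stages. As they mature, they gain lysosomal and antimicrobial proteins, receptors for lipids and bacterial products, and proteins for adhesion and migration. PU.1 (encoded by SPI1), IRF8 and members of the C/EBP family are transcription factors known to drive this program, and AML blasts are often stopped along it. Among the markers, MPEG1 (perforin-2) is a pore-forming protein of phagosomes, LYZ is lysozyme, which cleaves bacterial cell walls, CPVL is a serine carboxypeptidase of monocytes and macrophages, and FCN1 is a secreted lectin of monocytes. CD14 is a co-receptor for bacterial lipopolysaccharide, CD36 is a scavenger receptor for lipids, and CD93 is a C-type lectin-like receptor of monocytes and early progenitors. MS4A6A belongs to the membrane-spanning 4A family, PLAC8 is a small cysteine-rich protein, and LSP1 binds F-actin in leukocytes.

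Because the overexpressed miRNA pairs with targets through its seed, the mature miR-1-3p sequence (RefSeq, GRCh38.p14, from the MIR1-1 copy at chr20:62554351-62554372, plus strand) is shown with the seed, bases 2 to 8, in capitals, above each match to it in the 3′ UTRs of the 10 markers. The canonical transcripts were searched on the sense strand for ACATTCCA (an 8mer match), ACATTCC (7mer-m8) and CATTCCA (7mer-A1), and matches are in capitals.
hsa-miR-1-3p: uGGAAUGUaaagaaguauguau
MPEG1 8mer (chr11:59208620-59208643, minus strand): agaaaaccACATTCCAtggactat
LYZ 7mer-m8 (chr12:69353479-69353501, plus strand): tctccagtACATTCCgttctttt
CD93 7mer-m8 (chr20:23082486-23082508, minus strand): actggaacACATTCCtgggggtc
CD93 7mer-A1 (chr20:23083873-23083895, minus strand): gaactcccCATTCCAaaggggca

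MPEG1 was the only marker of the 10 with an 8mer match, which 4.82% of the 19550 canonical 3′ UTRs searched hold. Its match began at base 2080 of a 3′ UTR of 2205 bases. LYZ held 1 match and CD93 held 2 shorter matches, and the 3′ UTRs of the other 7 markers held none. A 7mer-m8 or 8mer match is in 11.71% of the 3′ UTRs and any of the 3 kinds is in 19.92%, so the matches are a description of these sequences and not evidence of binding.

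RefSeq promoter windows (250 bases before to 50 bases after a start, GRCh38.p14) were matched for 6 of the 10 markers, in 17 windows. The first-listed window is shown for MS4A6A, PLAC8 and CD36, whose RNA was higher together in Molm-14 KO libraries, and for CD14, which was near 0 in Molm-14. Capitals mark the PU.1 motif GAGGAA and the C/EBP motif TTNNGNAAT, searched on both strands.
MS4A6A promoter (chr11:60184617-60184916, minus strand): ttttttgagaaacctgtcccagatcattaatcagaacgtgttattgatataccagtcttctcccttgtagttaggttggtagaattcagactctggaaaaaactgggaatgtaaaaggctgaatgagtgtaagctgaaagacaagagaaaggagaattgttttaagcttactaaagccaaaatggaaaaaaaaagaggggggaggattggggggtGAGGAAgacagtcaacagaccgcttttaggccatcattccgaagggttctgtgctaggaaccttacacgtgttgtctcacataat
PLAC8 promoter (chr4:83114680-83114979, minus strand): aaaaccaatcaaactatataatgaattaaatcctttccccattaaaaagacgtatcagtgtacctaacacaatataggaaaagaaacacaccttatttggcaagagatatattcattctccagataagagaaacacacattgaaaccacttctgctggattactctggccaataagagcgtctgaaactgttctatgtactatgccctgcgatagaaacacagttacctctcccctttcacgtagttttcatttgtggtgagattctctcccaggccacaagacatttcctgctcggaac
CD36 promoter (chr7:80601957-80602256, plus strand): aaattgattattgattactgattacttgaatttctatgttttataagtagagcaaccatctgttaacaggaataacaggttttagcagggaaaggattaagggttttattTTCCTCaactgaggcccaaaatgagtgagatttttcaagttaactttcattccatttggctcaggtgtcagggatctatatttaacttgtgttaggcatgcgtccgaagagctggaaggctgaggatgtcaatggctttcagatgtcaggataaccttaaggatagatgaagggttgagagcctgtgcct
CD14 promoter (chr5:140633126-140633425, minus strand): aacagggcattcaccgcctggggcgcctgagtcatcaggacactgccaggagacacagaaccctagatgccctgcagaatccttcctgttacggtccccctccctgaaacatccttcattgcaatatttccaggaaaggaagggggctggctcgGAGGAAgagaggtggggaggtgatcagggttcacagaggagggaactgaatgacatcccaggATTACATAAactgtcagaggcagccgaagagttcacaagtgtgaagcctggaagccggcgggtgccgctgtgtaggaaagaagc

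The PU.1 motif began 35 bases upstream of the start in MS4A6A, 96 in CD14 and 140 in CD36, on the minus strand in CD36, and the PLAC8 window held neither motif. In CD14 a C/EBP motif also began 34 bases upstream, on the minus strand. Over all 17 windows, 10 held the PU.1 motif and 5 the C/EBP motif, against 27.85% and 11.0% of the 35116 windows of all genes. Each of the 6 markers held the PU.1 motif in at least 1 window, but the share of all genes that do was not counted. CD36 had 6 windows and MS4A6A had 4, which gives more places for a match. CD36 windows 3 and 4 overlap, and the same match is counted in both. The alternative starts of 1 gene are not independent, and a motif in a window does not show that a factor bound there.

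The markers fell into expressed and near-silent genes. FCN1 had 0 to 2 counts in every library of both sets and was at 0 in all Molm-14 and THP-1 libraries of the knockout set, where a count of 0 allows up to 0.337 to 0.542 CPM (counts-per-million, on TMM-scaled library sizes). CD14 had 0 to 4 counts in every MV4-11 and Molm-14 library of both sets and 15 to 28 counts in THP-1 libraries. Thus 2 genes that define mature classical monocytes were near the detection limit in MV4-11 and Molm-14 cells, while the other 8 were measured in all 3 lines. After the filter on low counts, 8 markers were tested in the overexpression set and 9 (all but FCN1) in the knockout set, and CD14 passed through its THP-1 libraries.

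Facts on the cells bear on all comparisons. MIR133A1HG, the host transcript of MIR1-2, had 0 counts in every EV library and 34 to 73 counts in OE libraries. MPC1 RNA was 23.5 to 26.0 CPM in MV4-11 KO against 53.7 to 58.3 in EV. It was 33.2 to 41.0 CPM in Molm-14 KO against 72.9 to 80.0 in EV, and 50.3 to 58.9 in THP-1 KO against 90.6 to 100.3 in EV, so the KO groups kept MPC1 transcripts. The 6 leukocyte and myeloid identity genes were detected in every group, with sums of 451.5 to 889.0 CPM. T cell markers summed to at most 3.73 CPM, erythroid markers to at most 20.0, and megakaryocyte markers to at most 11.4. B cell markers summed to 104.3 to 119.9 CPM in Molm-14 libraries of the overexpression set, with MS4A1 at 0 in the EV group, and to at most 10.6 in MV4-11. A further list held EPCAM, KRT8, COL1A1, COL1A2, PECAM1 and CDH5. It summed to 48.9 to 114.6 CPM in MV4-11 and Molm-14 libraries of both sets and to 248.9 to 289.0 in THP-1. EPCAM and CDH5 were at 0 in both THP-1 groups. The sums were not split by gene, and whether they show cells of tissues other than blood was not tested. In bulk RNA, fewer cells that express a gene and less RNA of it per cell cannot be told apart.

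Levels in control cells separated the lines. In the EV libraries of the knockout set, MV4-11 had the highest LYZ, MS4A6A, PLAC8, CD36, LSP1 and MPEG1, and THP-1 had the highest CD93, CPVL and CD14. These contrasts between lines were not used to pick the markers and were tested with edgeR's quasi-likelihood test, with a false discovery rate (FDR) under 0.05 over all genes of a set. Most genes differ between lines (67.5% of all tested genes for THP-1 against MV4-11, 61.7% for Molm-14 against MV4-11 and 69.6% for THP-1 against Molm-14), so that 8 of 8, 8 of 8 and 7 of 8 expressed markers called is read against a high background. CD14 is left out of these counts because it passed the filter through THP-1.

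LYZ was the most abundant marker per length in each of the 3 lines. In the knockout set it was 7529, 5966 and 6223 CPM in MV4-11 EV replicates 1 to 3, 332.3, 285.4 and 346.7 CPM in Molm-14, and 867.1, 829.0 and 673.5 CPM in THP-1. The 3 lines did not overlap. LYZ was 20.5-fold higher in MV4-11 than in Molm-14 (log2 fold change -4.35 ± 0.12 SE for Molm-14 against MV4-11) and 2.46-fold higher in THP-1 than in Molm-14 (log2 fold change 1.30 ± 0.10 SE). Per kilobase of exon, LYZ was 3812 ± 486.4 CPM (SD, n = 3) in MV4-11 EV, against 135.4 ± 5.98 for PLAC8 and 107.8 ± 7.88 for MS4A6A.

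MS4A6A, PLAC8, CD36 and LSP1 followed the order MV4-11, THP-1, Molm-14, and each step passed the FDR. MS4A6A was 645.8, 588.9 and 559.9 CPM in MV4-11 EV, 382.5, 384.1 and 319.8 in THP-1 EV, and 31.8, 28.9 and 34.0 in Molm-14 EV. PLAC8 was 525.5, 525.9 and 486.5 CPM in MV4-11, 261.9, 285.9 and 256.9 in THP-1, and 45.7, 52.4 and 53.3 in Molm-14. In both genes the gap below THP-1 was the wider, with an 11.5-fold step for MS4A6A and a 5.30-fold step for PLAC8. CD36 fell along the same order from 152.2 ± 5.73 to 68.3 ± 8.05 and 18.6 ± 1.82 CPM (SD, n = 3), and LSP1 from 9.23 ± 1.57 to 3.83 ± 0.45 and 1.03 ± 0.21 CPM.

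CD93 and CPVL ran the other way. CD93 was 13, 14.3 and 13.6 CPM in MV4-11 EV, 94.2, 88.3 and 91.0 in Molm-14 EV, and 258.8, 234.3 and 263.6 in THP-1 EV. Each step was larger than the spread between libraries, with log2 fold changes of 2.74 ± 0.09 SE from MV4-11 to Molm-14 and 1.47 ± 0.08 SE from Molm-14 to THP-1. CPVL was 0.81, 1.75 and 1.54 CPM in MV4-11 EV (7 to 13 counts), 58.0, 49.0 and 60.0 in Molm-14 EV, and 89.5, 81.3 and 66.5 CPM in THP-1 EV. It was thus close to absent in MV4-11, and its level in THP-1 was 1.43-fold that in Molm-14 (edgeR FDR = 0.000206).

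MPEG1 was 34.9, 33.4 and 37.5 CPM in MV4-11 EV, 5.21, 6.53 and 3.82 in Molm-14 EV and 3.99, 4.93 and 5.80 in THP-1 EV. MV4-11 stood above both other lines, which overlapped. For THP-1 against Molm-14 the log2 fold change was -0.11 ± 0.21 SE, with a 95% interval of -0.52 to 0.29 (edgeR FDR = 0.64), and MPEG1 was the only marker tested that missed the threshold between these lines. CD14 in THP-1 EV was 3.72, 3.14 and 3.08 CPM (17 to 28 counts), above the 0.12 to 0.31 CPM of MV4-11 EV and the 0.13 to 0.23 CPM of Molm-14 EV, each of 1 or 2 counts.

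**Figure D1:**
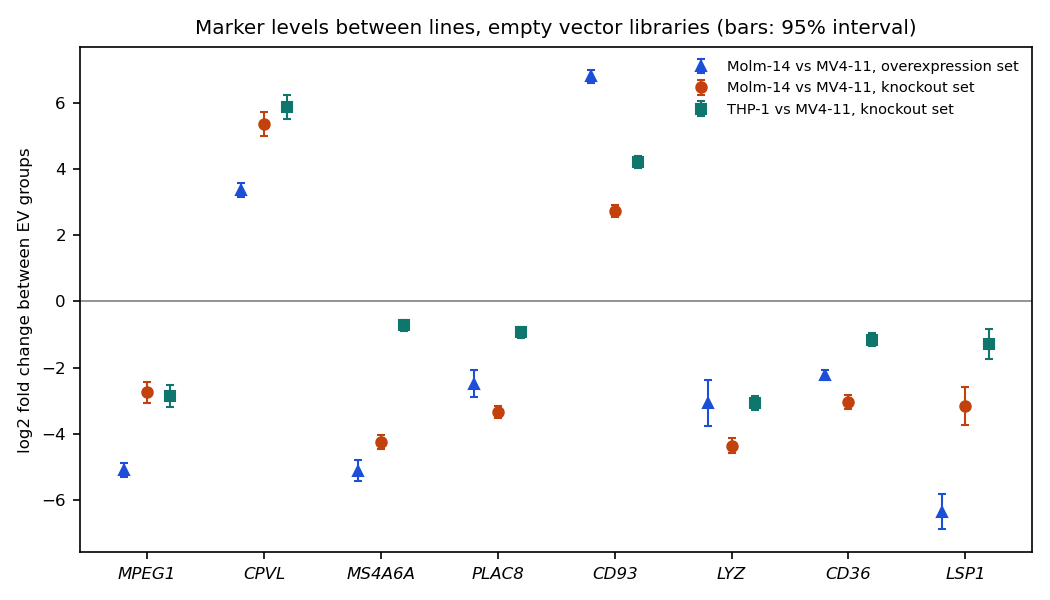
log2 fold change of each of the 8 expressed markers between empty vector groups (y axis, no unit). Molm-14 against MV4-11 is shown in the overexpression set (triangles) and the knockout set (circles). THP-1 against MV4-11 is shown as squares. Bars are approximate 95% intervals. CPVL and CD93 lie above 0 and the other 6 markers below it in all 3 comparisons.

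In the overexpression set the order between MV4-11 and Molm-14 EV cells was the same for each of the 8 markers tested, and all 8 passed the FDR (64.8% of all genes tested did). CPVL and CD93 were higher in Molm-14 and the other 6 were lower. MPEG1 was 128.4, 129.7 and 134.1 CPM in MV4-11 EV and 3.79, 4.36 and 3.39 in Molm-14 EV, a 33.9-fold gap. LSP1 was 56.2, 62.5 and 51.2 CPM against 0.50, 0.72 and 0.82 (8 to 14 counts), an 82.0-fold gap. The 2 sets were counted separately and used other control vectors, so their levels are not compared here.

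Overexpression of miR-1 in MV4-11 cells came with lower MPEG1 and CPVL, and the other 6 expressed markers had log2 fold changes of -0.26 to 0.15. MPEG1 was 63.6, 69.1 and 52.5 CPM in MV4-11 OE replicates 1 to 3 against 128.4, 129.7 and 134.1 in EV. All OE libraries were below all EV libraries, and the level was 0.47-fold that of EV (log2 fold change -1.08 ± 0.08 SE). CPVL was 1.02, 1.03 and 1.17 CPM in OE (17 to 21 counts) against 2.72, 2.99 and 2.47 in EV (42 to 62 counts). These groups did not overlap either, at a much lower level of expression (log2 fold change -1.35 ± 0.16 SE). MPEG1 and CPVL were the 2 of 8 tested markers under the FDR in this comparison, in which 0.177% of all genes tested were called. Both were picked for such a response, so the count carries no test.

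MPEG1 carries the 8mer match printed above and CPVL carries none. MPEG1 lies at chr11:59208510-59212927 on the minus strand and ends tail to tail with DTX4, which encodes a ubiquitin ligase and lies on the plus strand. Their exons share 79 bases, and the miR-1 match starts 40 bases beyond the end of DTX4. The sources do not state whether counting used the strand, so reads in the shared bases could belong to either gene. DTX4 was 84.8, 102.9 and 104.8 CPM in MV4-11 OE against 119.0, 119.7 and 102.6 in EV. These values overlap, and the log2 fold change was -0.22 (edgeR FDR = 0.68), and the part of shared reads in the MPEG1 difference was not tested.

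Among the 3 tested markers not picked for a response, none passed the FDR in MV4-11 OE cells, and 1 (CD36) had an unadjusted p under 0.05, as did 5.9% of all genes tested. CD36 was 67.9, 66.3 and 68.9 CPM in OE against 79.6, 80.5 and 79.4 in EV. The groups did not overlap, but the difference was small (log2 fold change -0.24 ± 0.07 SE) and missed the threshold by edgeR over all genes (FDR = 0.26). LSP1 was 37.0, 48.2 and 56.2 CPM against 56.2, 62.5 and 51.2, with overlap and a log2 fold change of -0.26 ± 0.16 SE (95% interval -0.57 to 0.04).

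LYZ was 537.8, 955.1 and 1246 CPM in MV4-11 OE replicates 1 to 3 and 861.5, 1086 and 527.9 CPM in EV. Both groups spread widely and overlapped, and OE replicate 1 and EV replicate 3 were the lowest. PLAC8 was lowest in the same pair (223.4 and 223.7 CPM, against 276.3 to 365.3 in the other 4 libraries), as was MS4A6A (402.9 and 395.7 CPM against 469.3 to 543.7). These libraries also had the highest summed CPM of 25 interferon-stimulated genes, at 1182 and 456.9 CPM against 279.6 to 298.0 in the other 4. MPEG1 did not follow this split, at 63.6 CPM in OE replicate 1 and 134.1 CPM in EV replicate 3. Whether interferon-stimulated expression had a part in the levels of LYZ, PLAC8 and MS4A6A was not tested. Without this pair of libraries the log2 fold changes were 0.18 for LYZ, 0.01 for PLAC8, 0.01 for MS4A6A, -1.08 for MPEG1 and -1.38 for CPVL.

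**Figure D2:**
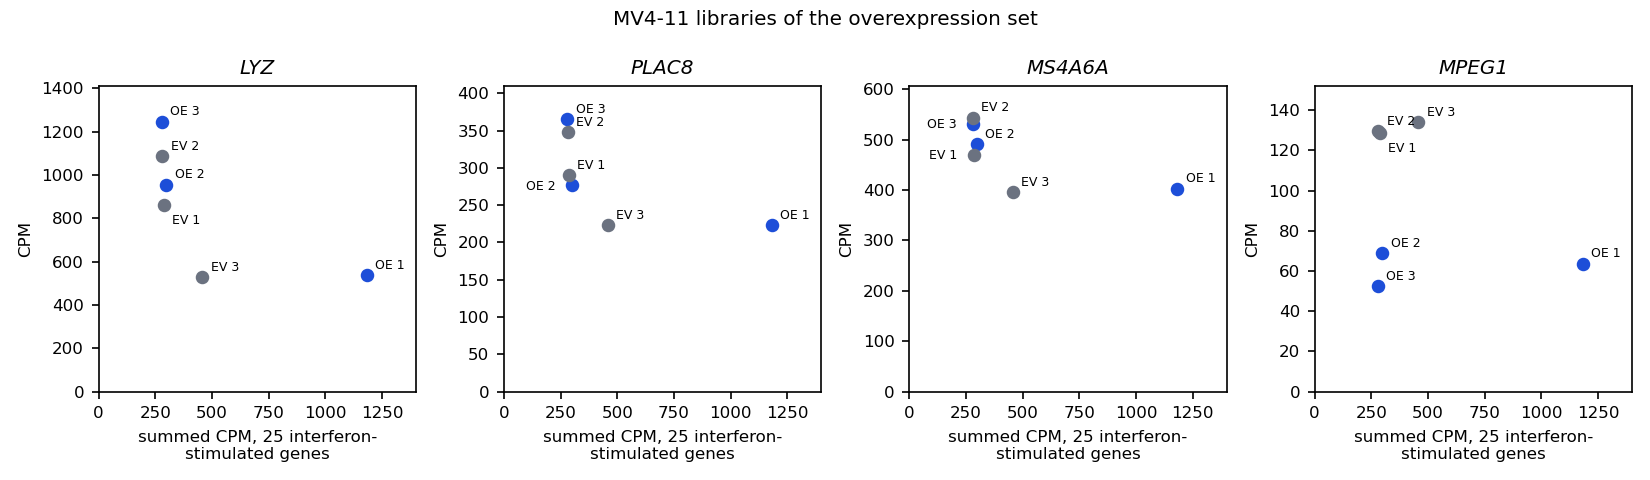
CPM of LYZ, PLAC8, MS4A6A and MPEG1 (y axes, linear from 0) against the summed CPM of 25 interferon-stimulated genes (x axis) in the 6 MV4-11 libraries of the overexpression set, OE in blue and EV in grey. OE 1 and EV 3 have the highest interferon-stimulated sums and the lowest LYZ, PLAC8 and MS4A6A, whereas MPEG1 separates by treatment.

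In Molm-14 cells miR-1 overexpression came with no marker under the FDR (0.0057% of all genes tested were called), and 1 of the 3 not picked (CD36) had an unadjusted p under 0.05, as did 4.38% of all genes tested. MPEG1, which carries the 8mer match, was 4.16, 4.62 and 4.46 CPM in OE against 3.79, 4.36 and 3.39 in EV, with a log2 fold change of 0.19 ± 0.15 SE. CPVL, which Molm-14 expresses at a level far above that of MV4-11, was 28.5, 29.5 and 30.4 CPM against 27.8, 29.2 and 27.8 (log2 fold change 0.06 ± 0.09 SE). CD93, at 143.2 to 148.1 CPM in OE and 146.7 to 152.2 in EV, gave a log2 fold change of -0.03 ± 0.06 SE. Thus neither gene that was lower in MV4-11 OE cells was lower in Molm-14 OE cells, and the difference between the lines was part of what picked them (log2 difference of 1.28 ± 0.17 SE for MPEG1 and 1.41 ± 0.18 SE for CPVL).

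LYZ was 112.3, 116.3 and 112.5 CPM in Molm-14 OE and 98.9, 101.7 and 94.5 in EV. The groups did not overlap, and the log2 fold change was 0.21 ± 0.34 SE (edgeR FDR = 1.0), in a fit that shares the spread over both lines. In a fit of the 6 Molm-14 libraries alone it was 0.21 with an FDR of 0.001127, and over the 11 alternatives the FDR ran from 0.001127 to 1.0. That fit of the line alone called 195 genes, against 1 in the shared fit, so the LYZ call there is not particular to this marker. LSP1 was 0.78, 1.24 and 2.06 CPM in OE and 0.50, 0.72 and 0.82 in EV, at 8 to 31 counts. Across the markers not picked for a response, the difference of the OE effect between lines was not under the FDR for any (0.0456% of all genes were called). At an unadjusted p under 0.05 there were 2 of 3, against 5.3% of all genes, and the nearest was CD36 with a log2 difference of 0.46 ± 0.11 SE (edgeR FDR = 0.32).

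**Figure D3:**
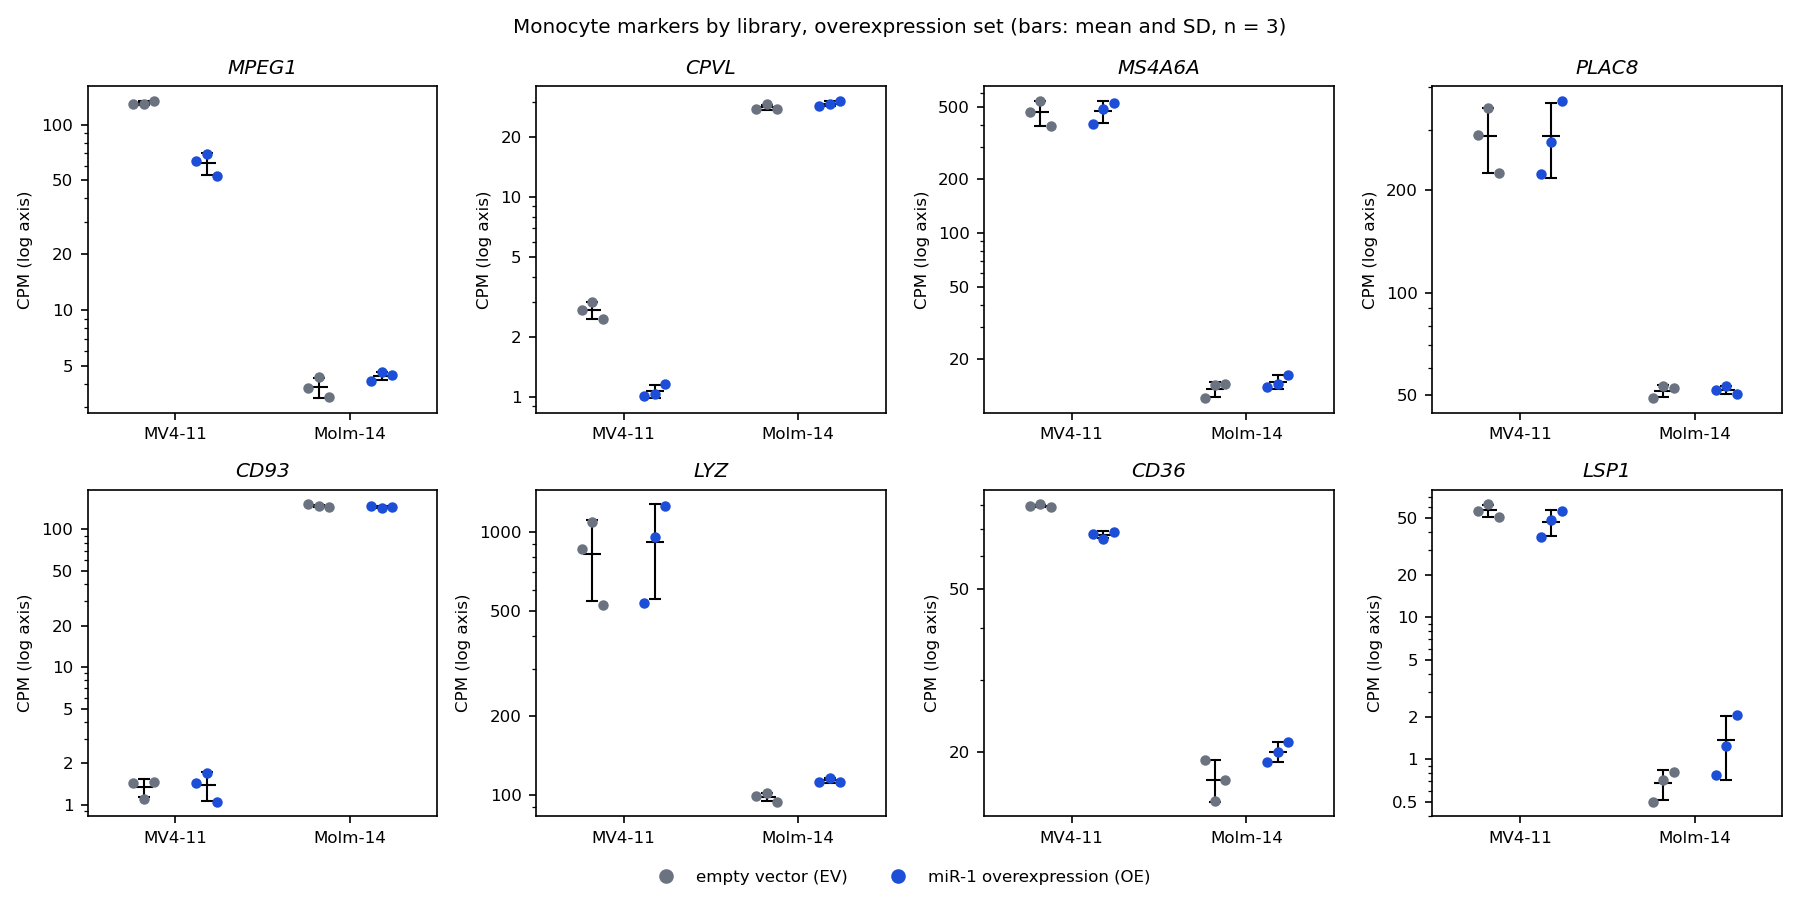
CPM of the 8 expressed markers (y axes, log scale) in each library of the overexpression set, by cell line, EV in grey and OE in blue; bars are the mean and SD of 3 libraries. MPEG1 and CPVL are lower in every MV4-11 OE library than in any MV4-11 EV library and overlap in Molm-14.

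Deletion of MPC1 in Molm-14 cells came with higher levels of most expressed markers. MPEG1, MS4A6A, PLAC8 and CD93 of the picked markers and LYZ, CD36 and LSP1 of the others were higher in every KO library than in any EV library. The share of all genes that separate in this way was not counted in any comparison. Separation of libraries is therefore a description and not a test. Of the markers not picked for the response, LYZ, CD36 and LSP1 were under the FDR, where 2.4% of all genes tested were called, and CD14 had too few counts in Molm-14 to compare. The 4 picked markers carry no test, and the others were listed with earlier results of these data known.

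LYZ was 625.8, 627.5 and 624.2 CPM in Molm-14 KO replicates 1 to 3 against 332.3, 285.4 and 346.7 in EV. It rose 1.95-fold (log2 fold change 0.96 ± 0.10 SE, edgeR FDR = 8.319e-07). CD36 was 32.5, 30.7 and 31.9 CPM in KO against 19.2, 16.5 and 20.0 in EV. Again the groups were well apart, with a 1.71-fold rise (log2 fold change 0.77 ± 0.12 SE, edgeR FDR = 0.0001445). LSP1 was 2.99, 4.26 and 1.88 CPM in KO (12 to 32 counts) against 1.18, 1.13 and 0.79 in EV (6 to 10 counts). Its rise of 2.98-fold (log2 fold change 1.58 ± 0.36 SE, edgeR FDR = 0.01191) rests on few counts, and without EV replicate 3 or KO replicate 2 the FDR was 0.07925 or 0.1815.

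Of the picked markers, MPEG1 was 11.3, 15.3 and 15.5 CPM in Molm-14 KO against 5.21, 6.53 and 3.82 in EV, with the largest log2 fold change among them (1.42 ± 0.17 SE). MS4A6A was 61.1, 68.4 and 66.1 CPM against 31.8, 28.9 and 34.0 (log2 fold change 1.05 ± 0.10 SE). PLAC8 was 97.8, 100.3 and 113.0 CPM against 45.7, 52.4 and 53.3 (log2 fold change 1.03 ± 0.09 SE). Both were thus at about the same fold as LYZ. CD93 was 134.4, 128.7 and 118.8 CPM against 94.2, 88.3 and 91.0, a smaller difference (log2 fold change 0.48 ± 0.08 SE). CPVL stayed at 54.0 to 57.7 CPM in KO and 49.0 to 60.0 in EV, with a log2 fold change of 0.00 ± 0.11 SE, and CD14 had 1 to 3 counts in each Molm-14 library.

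**Figure D4:**
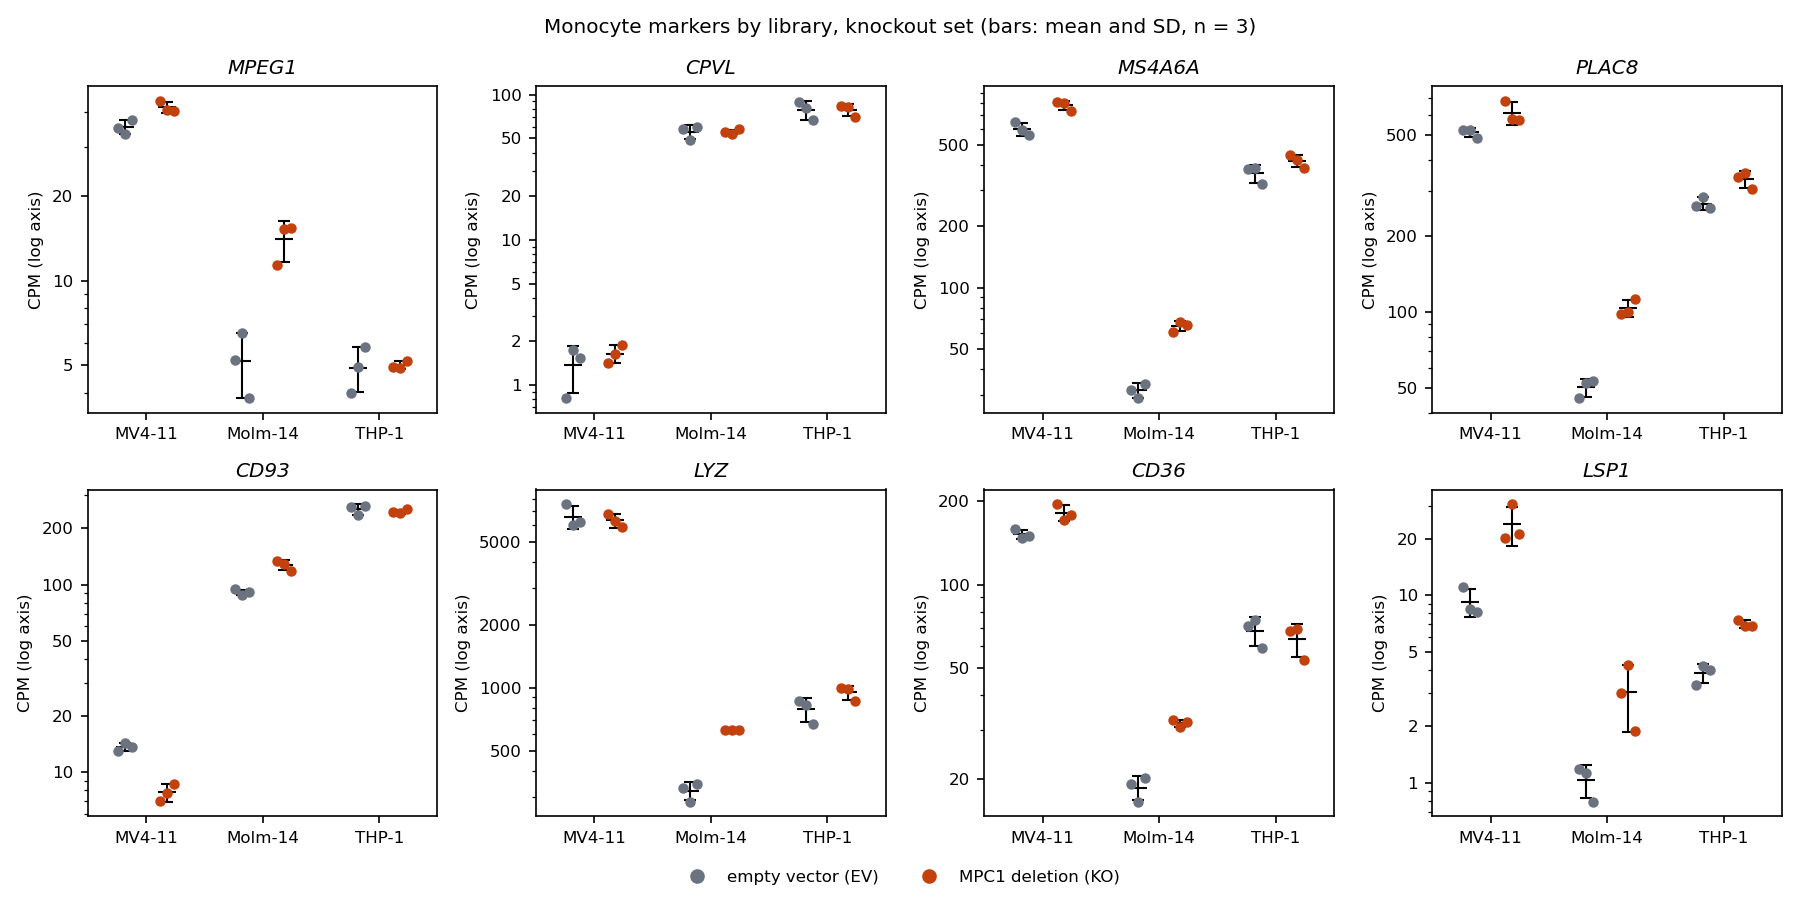
CPM of the 8 expressed markers (y axes, log scale) in each library of the knockout set, by cell line, EV in grey and KO in orange; bars are the mean and SD of 3 libraries. In Molm-14 all markers but CPVL are higher in every KO library, and CD93 is lower in every MV4-11 KO library.

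Of the overlapping or nearest tested genes of the markers, only DTX4, TNNI2 and MS4A4A were called in Molm-14 KO. Over all genes tested, 2.4% were called. The other tested neighbours were not called, among them FAM111A near MPEG1 (log2 fold change 0.19, edgeR FDR = 0.4557). DTX4, which shares 79 exon bases with MPEG1 on the other strand, was 41.6, 41.4 and 36.7 CPM in Molm-14 KO against 10.6, 13.6 and 11.1 in EV. It rose (log2 fold change 1.75, edgeR FDR = 3.203e-09), and the part of shared reads in the MPEG1 difference was not tested. TNNI2, a troponin gene and the nearest tested gene before LSP1, also rose (log2 fold change 2.50, edgeR FDR = 0.03681). MS4A4A, beside MS4A6A on chromosome 11 and of the same family, rose with a log2 fold change of 0.64 (edgeR FDR = 0.0121). LYZ shares 599 exon bases with an antisense lncRNA, ENSG00000257764, and LSP1 shares 222 with ENSG00000249086 and 61 with MIR7847, both on its own strand, and 123 with PRR33 on the other. None of these 4 genes was tested.

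In MV4-11 cells MPC1 deletion gave a different set of values. LSP1 was 20.3, 30.6 and 21.1 CPM in KO against 11.0, 8.48 and 8.17 in EV (53 to 95 counts in EV and 143 to 244 in KO). It rose 2.58-fold (log2 fold change 1.37 ± 0.18 SE, edgeR FDR = 4.152e-05), and TNNI2 rose beside it (log2 fold change 1.27, edgeR FDR = 0.003939). LYZ, by contrast with Molm-14, was 6803, 6288 and 5847 CPM in KO and 7529, 5966 and 6223 in EV. These values overlapped, with a log2 fold change of -0.06 ± 0.10 SE and a 95% interval of -0.26 to 0.14. CD36 was 194.9, 171.2 and 178.9 CPM in KO against 158.7, 147.7 and 150.3, without overlap and by a log2 fold change of 0.25 ± 0.09 SE that missed the threshold (edgeR FDR = 0.1086).

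CD93 in MV4-11 was 6.97, 7.77 and 8.67 CPM in KO against 13, 14.3 and 13.6 in EV (49 to 69 and 88 to 112 counts). All KO libraries were below all EV libraries (log2 fold change -0.80 ± 0.12 SE), the reverse of Molm-14. MS4A6A was 806.3, 798.3 and 732.8 CPM in KO against 645.8, 588.9 and 559.9 (log2 fold change 0.38 ± 0.08 SE). MPEG1 and PLAC8 were also higher in each KO library than in any EV library, by small amounts (log2 fold changes 0.23 ± 0.12 and 0.25 ± 0.08 SE). DTX4, which overlaps MPEG1, rose there too (log2 fold change 0.45, edgeR FDR = 0.02098). The part of shared reads in the MPEG1 difference was not tested. CPVL overlapped at 7 to 15 counts a library. Of the markers not picked, LSP1 alone was under the FDR, where 5.41% of all genes tested were called, and its rise was known beforehand, so nothing is read from this count.

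In THP-1 cells MPC1 deletion came with no marker under the FDR by edgeR (0.0897% of all genes tested were called), and of those not picked LYZ and LSP1 had an unadjusted p under 0.05, with higher means in KO, as did 8.01% of all genes tested in either direction. DESeq2 called 0 of the 7 markers to which it gave an adjusted p, which did not include LSP1 and CD14. LSP1 was 7.41, 6.83 and 6.87 CPM in KO against 3.33, 4.19 and 3.99 in EV, without overlap (41 to 48 and 22 to 28 counts). The log2 fold change was 0.88 ± 0.25 SE (edgeR FDR = 0.3043). LYZ was 996.9, 986.2 and 865.9 CPM in KO and 867.1, 829.0 and 673.5 in EV, which overlapped, at a log2 difference of 0.27 ± 0.10 SE (edgeR FDR = 0.5411). CD36 was 53.5 to 69.2 CPM in KO and 59.3 to 74.6 in EV (log2 fold change -0.11 ± 0.10 SE).

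PLAC8 in THP-1 was 342.0, 355.4 and 305.8 CPM in KO against 261.9, 285.9 and 256.9 in EV (log2 fold change 0.32 ± 0.09 SE), and MS4A6A was 444.4, 422.8 and 385.4 against 382.5, 384.1 and 319.8 (log2 fold change 0.20 ± 0.08 SE). Neither overlapped between groups. MPEG1, CPVL and CD93 overlapped, with log2 fold changes of 0.05 ± 0.21, 0.00 ± 0.11 and -0.04 ± 0.07 SE. CD14, measurable in this line alone, was 4.01, 3.42 and 2.51 CPM in KO and 3.72, 3.14 and 3.08 in EV (15 to 28 counts). Its log2 fold change was 0.00 ± 0.27 SE with a 95% interval of -0.52 to 0.52, which holds changes of up to 1.43-fold in either direction.

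**Figure D5:**
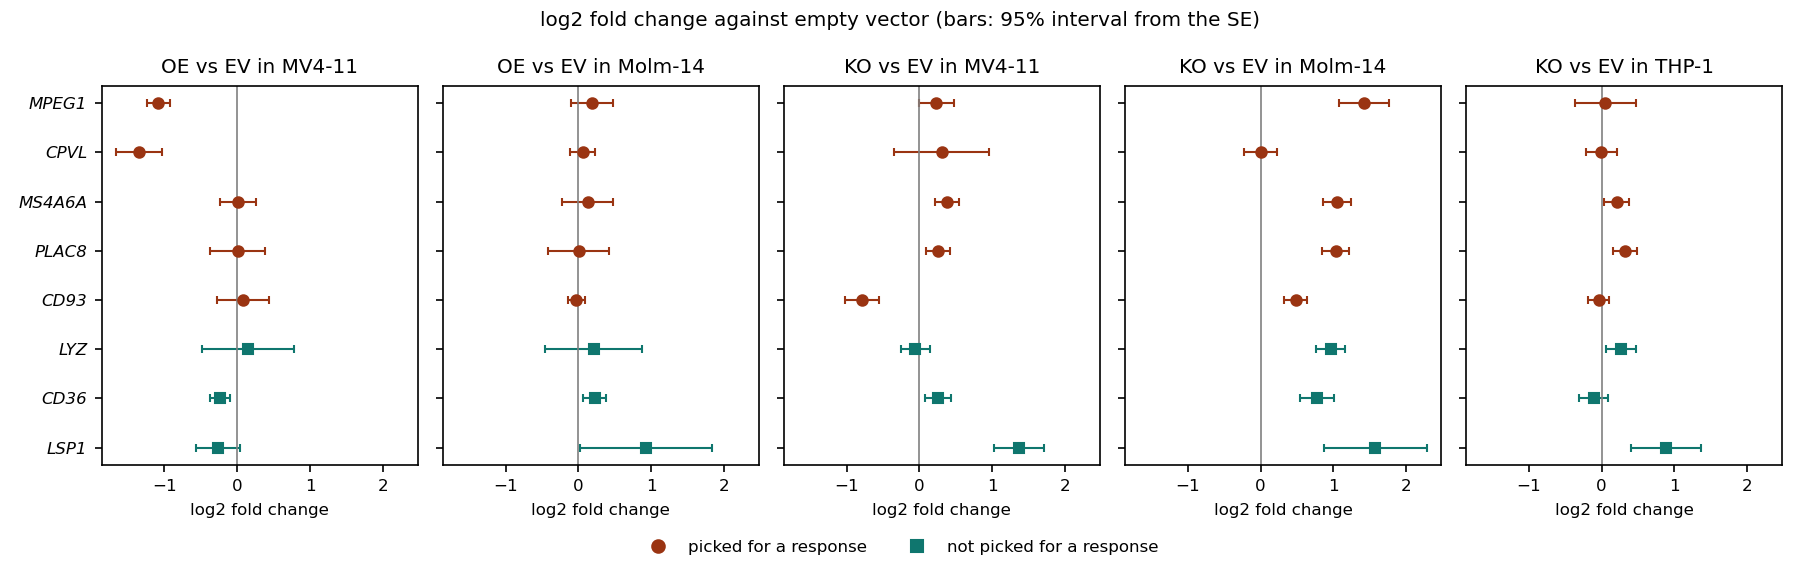
log2 fold change against empty vector (x axes, no unit) of the 8 expressed markers in the 5 treatment comparisons, with approximate 95% intervals. Circles are markers picked for a response and squares are markers that were not. LYZ and CD36 lie clear above 0 after KO in Molm-14, and LSP1 lies above 0 after KO in all 3 lines.

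The response to MPC1 deletion differed between lines for some of the markers not picked for it. For LYZ, the log2 fold change in Molm-14 was larger than in MV4-11 by 1.02 ± 0.14 SE (edgeR FDR = 0.00016) and larger than in THP-1 by 0.70 ± 0.15 SE (edgeR FDR = 0.01207). For CD36, it was larger in Molm-14 than in THP-1 by 0.88 ± 0.16 SE (edgeR FDR = 0.002725), while the difference of 0.52 ± 0.15 SE from MV4-11 missed the threshold (edgeR FDR = 0.08206). For LSP1 no difference between lines passed. The difference of Molm-14 from MV4-11 was 0.21 ± 0.39 SE (95% interval -0.56 to 0.97), an interval that leaves room for a difference in either direction. Over all genes, 1.48% were called for Molm-14 against MV4-11, 0.766% for THP-1 against Molm-14 and 0.193% for THP-1 against MV4-11.

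Over the 18 knockout libraries, after the mean of each line was removed, MS4A6A, PLAC8, LYZ and CD36 moved together, with Pearson r between 0.85 and 0.95 for their pairs. MPEG1 had r of 0.73 to 0.86 with these 4 genes. CD93 had r of at most 0.43 and CPVL of at most 0.39 with any other marker, the latter with CD14. By the same measure, the genes most like MPEG1 among all tested genes averaging 100 counts or more were ZNF518B (r = 0.95), MAN1A1 (0.935) and NCALD (0.93), and those most like CD14 were TMEM64 (0.80), SURF1 (0.78) and WDR1 (0.69). CD14 had 1 to 4 counts in each MV4-11 and Molm-14 library of this set, so its values of r rest largely on counting noise. All these values describe libraries that share treatment and line, and no p is given.

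Other genes of the monocyte program changed in part. Of 32 listed monocyte surface receptors, 21 were tested in the knockout set. In Molm-14 KO, CCR2 (a chemokine receptor of classical monocytes; log2 fold change 1.18), LILRB4 (an inhibitory receptor; 0.80) and MS4A4A (0.64) led the 4 that rose, and MS4A3 (a marker of granulocyte-monocyte progenitors; -0.66) was the 1 that fell, where 2.4% of all genes tested were called in either direction. In MV4-11 KO only FCGR2A, an Fc receptor, rose (log2 fold change 0.41), 1 of 21 where 5.41% of all genes were called. The list's median log2 fold change was 0.25 in Molm-14 KO, 0.13 in MV4-11 KO, 0.09 in THP-1 KO, 0.09 in MV4-11 OE and 0.12 in Molm-14 OE, against 0.00 to 0.02 over all genes. None passed the edgeR FDR in THP-1 KO, MV4-11 OE or Molm-14 OE, where 6 of 21, 4 of 19 and 3 of 19 had an unadjusted p under 0.05, as did 8.01%, 5.9% and 4.38% of all genes tested.

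Of 26 phagocyte effector and lysosomal genes, 21 were tested, and 3 were called in MV4-11 KO and 2 in Molm-14 KO (5.41% and 2.4% of all genes were). MNDA, a nuclear protein of myeloid cells, fell in both MV4-11 KO (log2 fold change -0.64) and Molm-14 KO (-0.80). CYBB, a subunit of the phagocyte oxidase, fell in MV4-11 KO (-0.46), and TYROBP, a signaling adaptor, rose in Molm-14 KO (0.54). Of 18 myeloid transcription factors, 16 were tested, and 2 were called in MV4-11 KO and 1 in Molm-14 KO, against the same background. IRF8 was 868.3 ± 22.6 CPM in Molm-14 KO against 485.9 ± 40.2 in EV (SD, n = 3) and rose (log2 fold change 0.84 ± 0.08 SE, edgeR FDR = 1.402e-07). It also rose in MV4-11 KO (0.27 ± 0.08 SE), where SPI1 fell (-0.46 ± 0.14 SE, edgeR FDR = 0.04857). No gene of either list passed the edgeR FDR in THP-1 KO or in the OE comparisons. At an unadjusted p under 0.05 there were 9 phagocyte genes in THP-1 KO, 1 in MV4-11 OE and 2 in Molm-14 OE, and 1, 1 and 2 transcription factors in the same order, against 8.01%, 5.9% and 4.38% of all genes tested.

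Genes on the lists for neutrophil granules, dendritic cells and B cells also moved in some KO groups. The 7 neutrophil granule genes summed to 1028 to 1322 CPM in Molm-14 KO against 1718 to 1969 in EV, and 3 of the 5 tested (CTSG, MPO and PRTN3) fell, where 2.4% of all genes were called. In MV4-11 the sum was 1121 to 1408 CPM in KO against 1811 to 2098 in EV, and 3 of the 5 (AZU1, ELANE and PRTN3) fell, where 5.41% of all genes were called. In THP-1 it was 4722 to 5239 CPM in KO against 4192 to 4606 in EV, and none passed the FDR. LTF was at 0 in the MV4-11 groups and in Molm-14 EV. Of 7 dendritic cell genes 2 were tested, and both (CLEC10A and IL3RA) rose in MV4-11 KO, with sums of 95.2 to 110.5 CPM against 66.2 to 73.5 in EV, and CLEC9A and XCR1 were at 0 there. B cell markers summed to 27.7 to 36.2 CPM in Molm-14 KO against 38.3 to 56.6 in EV, without overlap, with MS4A1 at 0 in both and neither of the 2 tested genes called. Whether these lists are specific to a lineage in these lines was not tested, so the changes do not show other cell types. What part these genes had in the marker values was not tested either.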

How the data were processed

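RNA of 30 libraries was sequenced after ribosomal depletion with a stranded kit. Per the labels and the study's methods, the authors trimmed reads with cutadapt 1.16, aligned them to GRCh38 with STAR 2.7.6a, counted them per Ensembl gene with featureCounts 1.6.3 and compared groups with DESeq2 (1.30.1 in the submitters' processing notes). The deposited counts are whole numbers and not normalized, with 1 table per set and other annotation releases in each. The strand setting of the counting is not given in the sources used here.

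Counts were filtered with filterByExpr (17542 and 14490 genes kept), scaled by TMM and fitted with edgeR 4.0.16 (robust quasi-likelihood, R 4.3.3) with group means as the design and every library of a set in the same fit. The Benjamini-Hochberg adjustment ran over all genes tested, and an FDR under 0.05 was called. The fits were tested on simulated data. Pairs of replicates differed by more than sampling noise (chi-square per degree of freedom 1.50 to 15.8), and all libraries were kept. Floors (3 counts) and intervals for counts cover counting error only.

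Gene models and 3′ UTRs came from GENCODE release 44 and promoters and the miRNA from RefSeq. The alternatives were RLE factors, no filter beyond 1 count, DESeq2 1.42.0, a replicate block, the libraries of a line alone, each library left out and the interferon-high pair left out. The markers, gene lists and alternatives were chosen with earlier results of these data known. Genes named are the 10 markers, up to 3 called rises and falls per list and comparison, overlapping or nearest tested genes, and the 3 genes most like MPEG1 and CD14. CTSG, MPO, PRTN3, AZU1, ELANE, CLEC10A and IL3RA are named as the called members of their lists, after their values were seen. A called gene of the lists is not reported here.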

Additional observations from a re-analysis of the deposited data

Results flagged for a closer look

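LYZ responded to MPC1 deletion to a different extent by line. Its log2 fold change in Molm-14 exceeded that in MV4-11 by 1.02 (edgeR FDR = 0.00016), and that of THP-1 minus Molm-14 was -0.6965 (edgeR FDR = 0.01207, and 0.05559 without THP-1 EV replicate 1). LYZ was higher in 3 of 3 KO libraries than in any EV library in Molm-14, and overlapped in MV4-11 and THP-1.

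The CD36 response in THP-1 minus that in Molm-14 was -0.88 (edgeR FDR = 0.002725, with at most 0.01702 over 15 alternatives). CD36 was higher in 3 of 3 KO libraries than in any EV library in Molm-14 and overlapped in THP-1.

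CD93 moved in opposite directions in the FLT3-ITD lines. Its log2 fold change was 0.4822 in Molm-14 KO and -0.7952 in MV4-11 KO, without overlap between KO and EV libraries in either line. CD93 was among the markers picked for a response, so no test of this difference is given and the values are a description.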

How the results depend on the processing

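Depth limits FCN1 in every line, CD14, CPVL in MV4-11 and LSP1 in Molm-14. For single markers, 787 of 834 values with a library left out and 397 of 408 under the other alternatives kept their direction and side of the threshold. In fits of a line alone, 1 marker was called in MV4-11 OE (2 in the shared fit, without CPVL) and 1 in Molm-14 OE (0 in the shared fit, LYZ). Over all genes these fits called 9 in MV4-11 OE (31 in the shared fit) and 195 in Molm-14 OE (1 in the shared fit). Within a line, replicate numbers did not in general pair treated with EV libraries (correlations of deviations from -0.3769 to 0.3302). Only 3 of 15 pairs correlated best with their own number. In THP-1, however, all 3 correlations were positive (0.1788, 0.09873 and 0.3302), so pairing in this line stays unclear. LYZ after KO there had an FDR by edgeR or DESeq2 of at least 0.1721 over 11 alternatives, which include the replicate block. With the replicate block, 5 markers were called in MV4-11 KO in place of 3, with PLAC8 and CD36 added, and the log2 fold change of CD14 in THP-1 KO was 0.005333 in place of -0.003; genes called in MV4-11 KO went from 784 to 1474 and in MV4-11 OE from 31 to 15. The cause was not tested.

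With a library left out, the markers called were 2 to 3 in MV4-11 KO (2, without MS4A6A, when EV replicate 3 or KO replicate 1 was left out), 6 to 7 in Molm-14 KO, 5 to 6 for the difference of THP-1 from Molm-14, and 0 to 1 for that of THP-1 from MV4-11 (0, without CD93, when MV4-11 KO replicate 1 was left out). Counts of markers called, here and above, include picked markers. With all libraries these were 4 of 7 in Molm-14 KO and 2 of 3 in MV4-11 KO. They were 4 of 6 for THP-1 minus Molm-14 and 1 of 1 for THP-1 minus MV4-11. The counts thus describe the settings and are not a test, and calls over all genes are given below. Directions that turned were all of uncalled values. For the picked markers, 29 such values with a library left out and 3 under the other alternatives lay between -0.1985 and 0.09895. LYZ ran from -0.1418 to 0.4185 in MV4-11 OE, -0.2102 to 0.3507 for its difference between lines and -0.1231 to 0.05193 in MV4-11 KO. CD36 in THP-1 KO ran from -0.194 to 0.00491 and CD14 there from -0.1586 to 0.1547. LSP1, Molm-14 minus MV4-11 after KO, ran from -0.1401 to 0.4489, and MPEG1 in THP-1 against Molm-14 EV from -0.2893 to 0.1127. CD36, Molm-14 minus MV4-11, was called without the filter after both OE (0.46, FDR = 0.03211) and KO (0.55, FDR = 0.03311) and by DESeq2 after KO (FDR = 0.04361).

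Over all genes, calls with a library left out ran from 12 to 47 in MV4-11 OE (31 with all libraries), 4 to 9 for the OE difference (8), 133 to 1400 in MV4-11 KO (784), 183 to 293 in Molm-14 KO (348), 3 to 10 in THP-1 KO (13), 105 to 369 for Molm-14 minus MV4-11 (215) and 18 to 53 for THP-1 minus MV4-11 (28). Under the other alternatives they ran from 9 to 123, 9 to 33, 356 to 1474, 317 to 412, 4 to 30, 227 to 339 and 29 to 80 in the same order, and from 1 to 195 in Molm-14 OE (1). For THP-1 minus Molm-14 (111 with all libraries), calls ran from 78 to 108 with a library left out. Under the other alternatives they ran from 115 to 159.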
